A study of Homo sapiens with 21 samples.

Results

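The genes described here are 9 members of the SYK and Src-family kinase signalling system: the kinases SYK, LYN and FGR, the kinase CSK that holds Src-family kinases back, the exchange factor VAV1, the adaptors LCP2 and CARD9, the ubiquitin ligase CBL and the phosphatase PTPN6. Their regions were found by merging all peaks that shared at least 1 bp over 21 libraries and keeping the merged regions whose nearest protein-coding gene span, within 100000 bp, was one of these genes. This gave 102 of 166736 regions and 9 of 19974 genes. SYK had 22 regions, LYN 32, FGR 8, CSK 7, VAV1 8, LCP2 15, CARD9 3, CBL 3 and PTPN6 4. All 9 genes had at least 1 region. One CARD9 region lay as near to DNLZ, and one PTPN6 region as near to C12orf57, and both were kept. No label or file header used here names the build of the lists. Of 34788 annotated GRCh38.p14 starts, 33.33% lay under a region called in every library, against 2.16% and 2.22% with the starts moved by 10000 bp either way, so the lists were read as GRCh38.

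ATAC-seq, in which a transposase cuts adapters into open chromatin, was run on microglia-like cells. They were differentiated from the established human embryonic stem cell line H9. There were 7 lines with 3 libraries each. The edited lines were TREM2-R47H (a coding variant of the lipid receptor TREM2), TREM2-KO, SORL1-A528T (a coding variant of the sorting receptor SORL1), SORL1-KO (the R744X stop variant), CD33 SNP and INPP5D SNP, and the last was unedited WT. Per the labels, every edit was made with CRISPR/Cas9 in H9 clones and was homozygous. H9 itself carried both alleles at the INPP5D site, so WT is heterozygous there and the INPP5D SNP line is homozygous for A. The labels do not say how many clones stood behind a line. The libraries titled SORL1-A528T carry TREM2-KO as their genotype label and were grouped by title, and SORL1-A528T below means the libraries so titled. All lines went through blood progenitors and 28 days of microglial culture, with CD200 and CX3CL1 in the last 3 days, and 80000 sorted live cells were used. Whether a line's libraries were separate differentiations is not in the labels, and the p-values below reflect only the spread among the libraries, possibly a technical one.

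SYK is recruited when Src-family kinases such as LYN and FGR phosphorylate the tyrosine motifs of adaptors like TYROBP, the partner of TREM2 in microglia. It then acts through LCP2, VAV1 and CARD9 on calcium, the cytoskeleton and inflammatory transcription. CSK, CBL and PTPN6 limit this signal, and inhibitory receptors such as CD33 bring in PTPN6. INPP5D encodes a lipid phosphatase that counteracts the phosphoinositide branch of the same signal.

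The sequence at the starts of these genes is shown first because the text below turns on which starts were open. RefSeq (GRCh38.p14) gave 11 start windows for 7 of the genes, each 250 bases before to 50 after an annotated start. The capitals mark GAGGAA, on either strand (TTCCTC), a core of the sites bound by PU.1, the ETS factor that defines myeloid cells. SYK is shown at its second start, at chr9:90801569-90801868 (plus strand), VAV1 at chr19:6772458-6772757 (plus strand), LCP2 at chr5:170297728-170298027 (minus strand) and PTPN6 at chr12:6946327-6946626 (plus strand), since these 4 windows hold the longer GAGGAAGT. FGR is shown at both its starts, chr1:27635136-27635435 and chr1:27626548-27626847 (minus strand), since the first was open in every library and the second in none.
SYK: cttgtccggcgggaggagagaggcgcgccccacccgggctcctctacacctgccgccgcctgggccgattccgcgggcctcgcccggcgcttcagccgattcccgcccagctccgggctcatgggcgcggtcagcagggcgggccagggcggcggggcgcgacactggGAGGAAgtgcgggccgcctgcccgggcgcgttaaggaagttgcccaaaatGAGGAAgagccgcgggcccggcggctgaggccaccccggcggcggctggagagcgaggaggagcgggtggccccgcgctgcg
VAV1: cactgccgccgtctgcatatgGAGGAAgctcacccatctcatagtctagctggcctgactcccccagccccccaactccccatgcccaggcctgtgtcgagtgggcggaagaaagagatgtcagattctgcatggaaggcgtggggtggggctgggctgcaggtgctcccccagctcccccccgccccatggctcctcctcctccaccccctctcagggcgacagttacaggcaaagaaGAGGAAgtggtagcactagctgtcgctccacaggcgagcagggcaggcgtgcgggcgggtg
LCP2: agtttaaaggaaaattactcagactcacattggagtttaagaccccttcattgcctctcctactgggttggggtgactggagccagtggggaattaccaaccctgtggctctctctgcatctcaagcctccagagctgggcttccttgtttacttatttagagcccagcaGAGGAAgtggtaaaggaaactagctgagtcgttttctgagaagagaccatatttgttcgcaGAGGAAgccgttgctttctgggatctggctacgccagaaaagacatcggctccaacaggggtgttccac
PTPN6: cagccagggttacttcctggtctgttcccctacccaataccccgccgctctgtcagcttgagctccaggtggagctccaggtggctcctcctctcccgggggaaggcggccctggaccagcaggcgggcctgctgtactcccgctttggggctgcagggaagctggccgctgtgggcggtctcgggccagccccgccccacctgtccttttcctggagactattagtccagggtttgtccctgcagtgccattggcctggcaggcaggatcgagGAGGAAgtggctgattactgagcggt
FGR, outer start: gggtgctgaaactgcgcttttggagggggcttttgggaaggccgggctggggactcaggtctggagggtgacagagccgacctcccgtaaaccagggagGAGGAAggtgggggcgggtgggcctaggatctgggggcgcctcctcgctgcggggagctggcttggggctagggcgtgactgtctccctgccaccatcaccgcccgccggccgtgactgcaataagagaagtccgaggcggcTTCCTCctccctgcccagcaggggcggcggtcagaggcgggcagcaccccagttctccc
FGR, inner start: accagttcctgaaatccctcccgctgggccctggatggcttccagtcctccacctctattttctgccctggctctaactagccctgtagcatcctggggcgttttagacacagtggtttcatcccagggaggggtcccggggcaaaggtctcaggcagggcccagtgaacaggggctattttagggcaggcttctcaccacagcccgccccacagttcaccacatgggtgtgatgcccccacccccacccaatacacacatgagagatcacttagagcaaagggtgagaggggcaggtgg

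GAGGAA, searched on both strands, was found in 8 of the 11 windows and in 27.9% of 35116 windows of all genes. GAGGAAGT, which contains it, was found in 4 of the 11 windows and in 2.6% of all windows. In SYK it lay 82 to 75 bases before the start, in LCP2 80 to 73 bases before, in VAV1 11 to 4 bases before and in PTPN6 24 to 31 bases after the start. The inner FGR start, the SYK start at 90801600 and the PTPN6 start at 6951356 held no GAGGAA. None of the windows held CCGGAAGT, TGANTCA, the interferon response motif, TATAAA or CACGTG, which 4.1%, 7.7%, 3.6%, 11.5% and 7.3% of all windows held. GGGCGG, the GC box, was found in 6 of the 11 windows and 45.0% of all windows. TTGCNNAA, the C/EBP letters, was found in the SYK window shown and in 10.5% of all windows, and TGTGGT, the RUNX letters, in the inner FGR window and in 13.1%. The windows overlap for the first 2 SYK starts, and a match describes the letters only.

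Almost every annotated start of these genes was open in almost every library. Peaks lay over the SYK starts, the outer FGR start, the LCP2, CSK and PTPN6 starts in 21 of 21 libraries. The VAV1 start was called in 20, missing in SORL1-A528T replicate 2, and the CARD9 start in 20, missing in TREM2-KO replicate 2. The inner FGR start had a peak over it in 0 libraries and a peak within 1000 bp in 4. The CBL gene-end region (chr11:119204661-119208101) was called in 20 libraries, all but WT replicate 2, and the LYN gene-end region (chr8:55878579-55882368) in 21. The 3 libraries that lacked a peak all had replicate number 2, the shallowest set.

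Away from the starts the regions were more variable, as the map of calls by library shows. Every library called 29 of the 102 regions (28.4%), and 14 (13.7%) were found in 1 library each. Over all regions of the series these shares were 15.4% and 25.8%. LYN held 11 of the 29 shared regions, LCP2 7, SYK 5, FGR 2, PTPN6 2, CSK 1 and CARD9 1, while VAV1 and CBL held 0. Inside the gene spans, leaving out regions within 1000 bp of a gene end, 17 of 57 regions (29.8%) were called in all libraries, beside 12.8% of 69754 such regions at all genes. Outside the spans it was 6 of 34 (17.6%) beside 13.0%, and at gene ends 6 of 11 (54.5%) beside 47.4%. These shares are a description and were not tested.

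**Figure D1:**
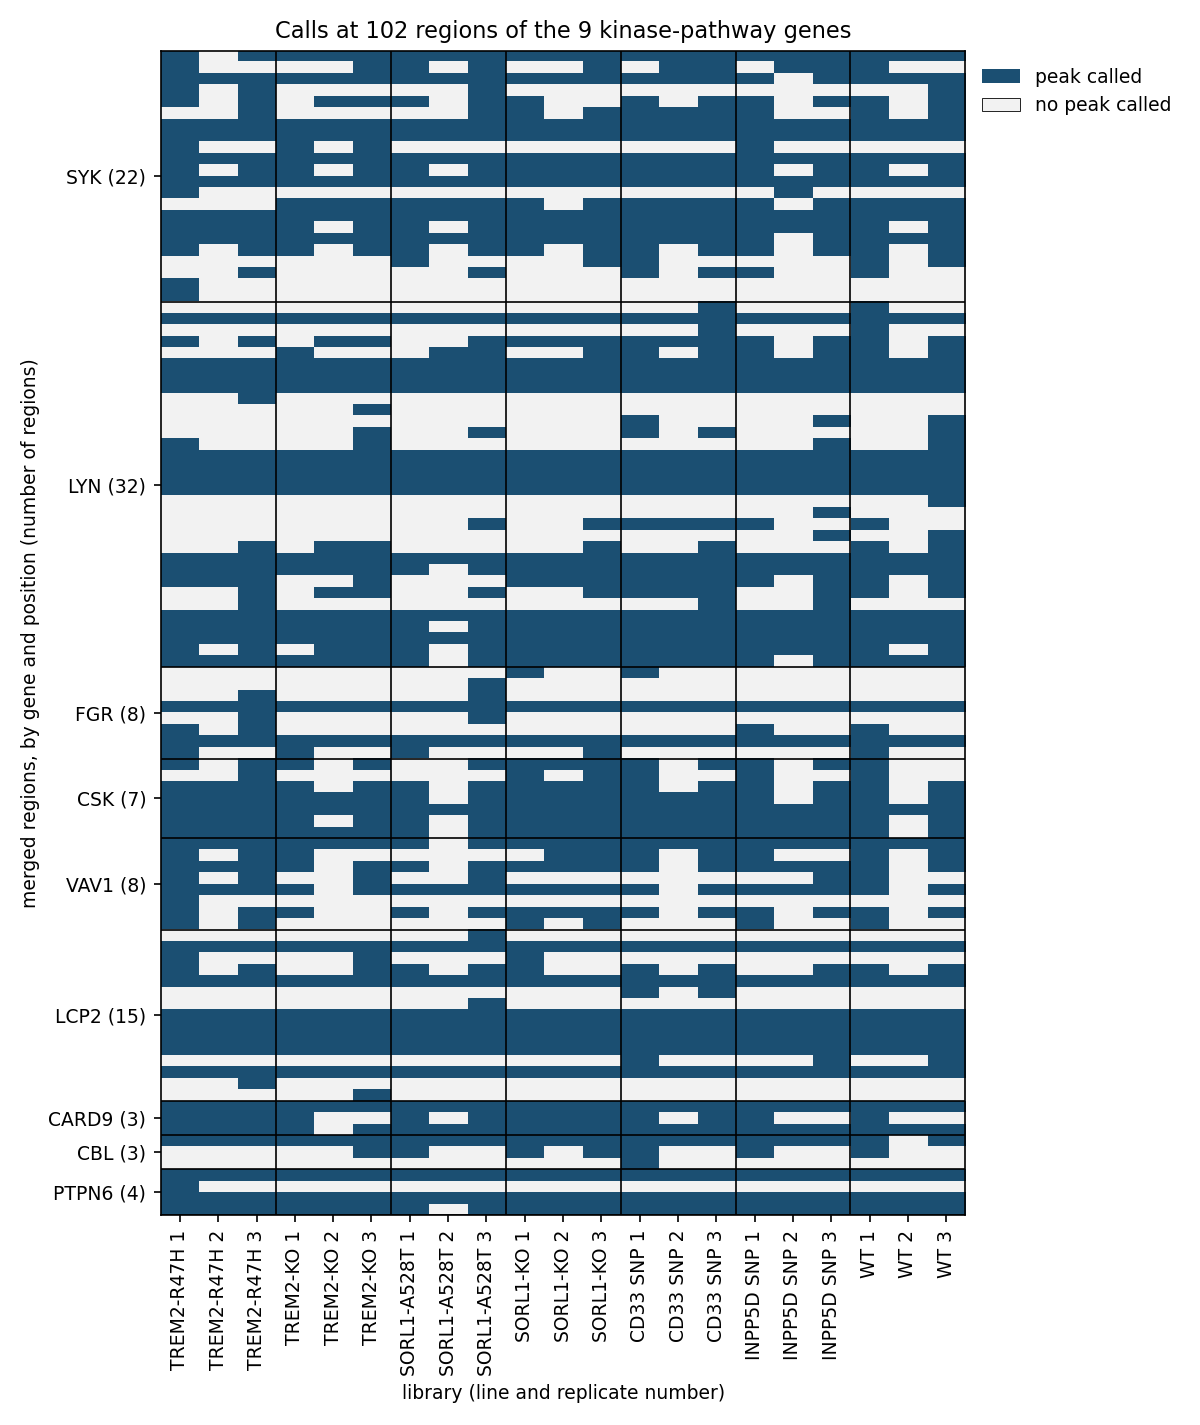
Calls at each of the 102 regions (rows, ordered by gene and position, number of regions in brackets) in each of the 21 libraries (columns, by line and replicate number). Dark cells are called peaks. The 29 unbroken dark rows are the regions called in every library, and the columns with replicate number 2 are the palest.

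Sequencing depth split the libraries by replicate number. Replicate 1 libraries had 56.5 to 67.4 M tags (M, mega), replicate 2 libraries 12.8 to 17.5 M and replicate 3 libraries 32.6 to 52.9 M, with 39736 to 102891 peaks per list. At the 9 genes 64.4% of possible calls were made in replicate 1, 44.7% in replicate 2 and 66.9% in replicate 3, against 48.4%, 31.3% and 53.4% over all regions. CSK and VAV1 had the widest gap between replicates 1 and 2. CSK had 91.8%, 46.9% and 87.8% of its possible calls in replicates 1, 2 and 3, and VAV1 had 71.4%, 26.8% and 66.1%. LCP2 had 7 of 15 regions called in each of the 7 replicate 2 libraries. Of 15 microglia and macrophage marker genes 8 to 14 were open per library, TMEM119 in 0 libraries and IRF8 in 1. Of 8 pluripotency markers 1 to 4 were open, with POU5F1, NANOG, LIN28A and ZFP42 in 0, and of 9 T and B cell markers, whose cells also use this pathway, 1 to 6, with CD3D and MS4A1 in 0. Of 7 mesenchymal markers 1 to 4 were open (COL3A1, LUM and DCN in 0), of 7 erythroid and megakaryocyte markers 0 to 2 (HBB, HBG1, GP9 and PF4 in 0), and of 5 mast cell markers 1 (KIT). The part of other cells in any result below was not tested.

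**Figure D2:**
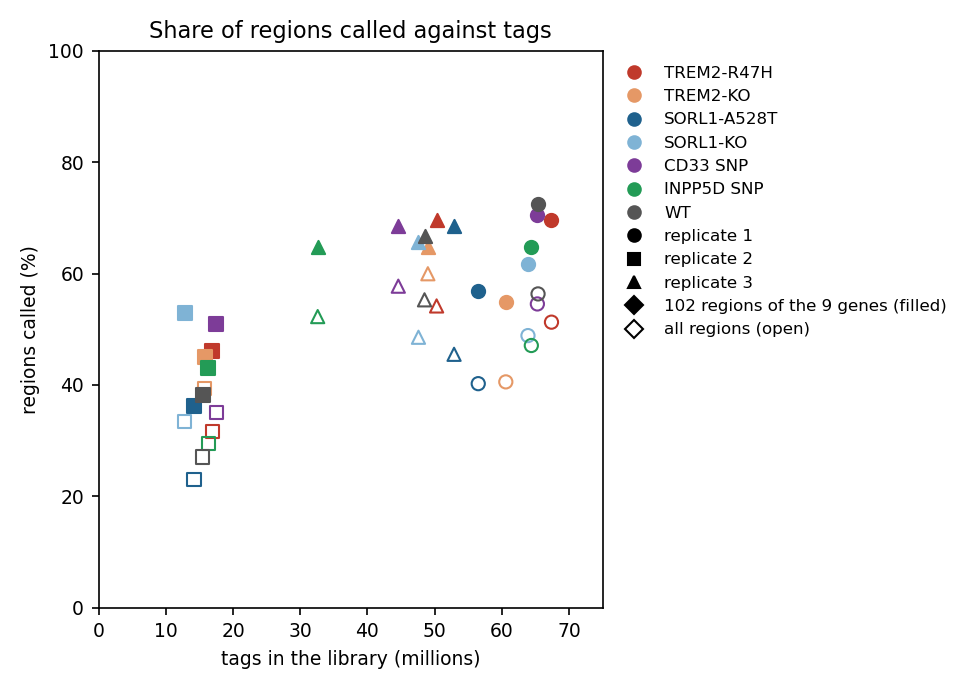
Percent of regions called (y) against tags in the library (x, M tags), filled for the 102 regions of the 9 genes and open for all 166736 regions, with lines by colour and replicate number by shape. The replicate 2 libraries sit at 12.8 to 17.5 M tags, and 36.3% to 52.9% of the 102 regions were called there, against 54.9% to 72.5% in replicate 1.

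The line means of the calls spanned less than the libraries within any one line. TREM2-R47H made 71, 47 and 71 calls at the 102 regions in replicates 1, 2 and 3, TREM2-KO 56, 46 and 66, SORL1-A528T 58, 37 and 70, SORL1-KO 63, 54 and 67, CD33 SNP 72, 52 and 70, INPP5D SNP 66, 44 and 66, and WT 74, 39 and 68. As shares the lines averaged 61.8% ± 13.6 in TREM2-R47H, 54.9% ± 9.8 in TREM2-KO, 53.9% ± 16.4 in SORL1-A528T, 60.1% ± 6.5 in SORL1-KO, 63.4% ± 10.8 in CD33 SNP, 57.5% ± 12.5 in INPP5D SNP and 59.2% ± 18.4 in WT (SD, n = 3 each). Every line's range overlapped that of WT. In bulk cells, fewer cells with a region open and weaker opening in each cell cannot be told apart.

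To lessen the effect of depth, each call was replaced by the depth-adjusted call. This is the call (1 or 0) less what regions of equal recurrence averaged in that library. Equal recurrence means called in as many of the 21 libraries. A gene's value is the mean over its regions: 0 means that a gene was called as often as regions of like recurrence in that library, and a positive value that it was called more often. This was tested with limma over 8732 genes with at least 5 regions, with Benjamini-Hochberg adjustment per comparison at 0.05, so SYK, LYN, FGR, CSK, VAV1 and LCP2 entered the test and CARD9, CBL and PTPN6 did not. The 6 comparisons of an edited line with WT share the 3 WT libraries. Of 48 tests at the 6 genes (8 comparisons), 0 passed the adjusted threshold and 6 (12.5%) had an unadjusted p below 0.05, against 5.74% of all 69856 tests. In all, limma called 0 genes (0.0%) in TREM2-R47H, TREM2-KO, SORL1-A528T, SORL1-KO and CD33 SNP against WT, and 1 (0.0115%) in INPP5D SNP against WT. It called 0 (0.0%) in TREM2-R47H against TREM2-KO, in SORL1-A528T against SORL1-KO and in the F test over all lines. The genes with an unadjusted p below 0.05 numbered 736 (8.43%), 307 (3.52%), 357 (4.09%), 415 (4.75%), 220 (2.52%), 251 (2.87%), 1205 (13.8%), 517 (5.92%) and 531 (6.08%) in that order. These counts are from the fit without pairing. With the replicate number as a block, 59 genes passed in TREM2-R47H against TREM2-KO and 8 in SORL1-A528T against SORL1-KO.

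**Figure D3:**
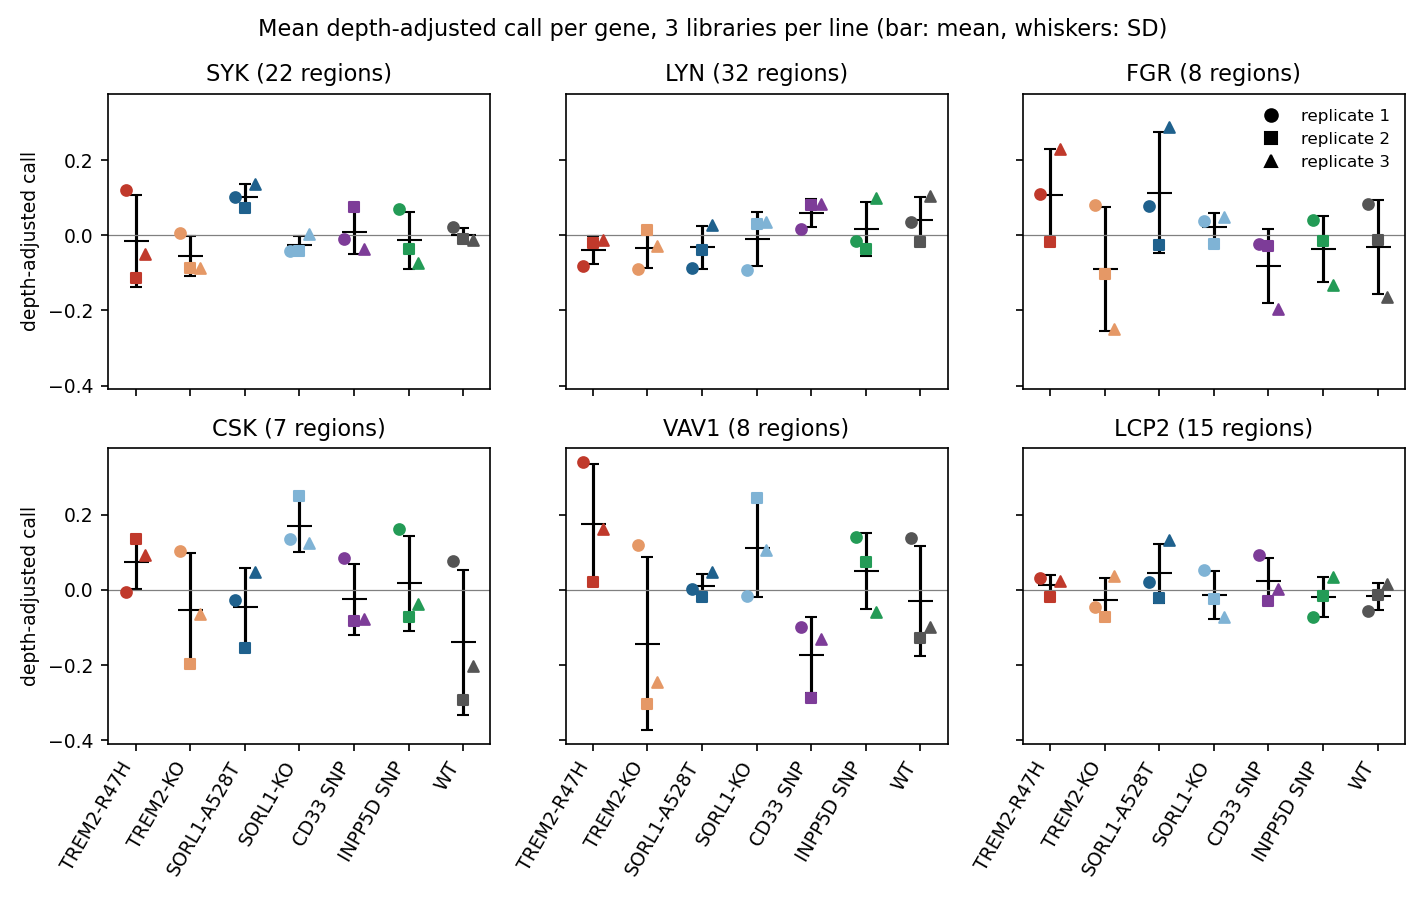
Mean depth-adjusted call (y, difference of call shares, no unit) of the 6 testable genes by line (x), with a point per library shaped by replicate number, a bar at the mean of 3 libraries and whiskers of 1 SD. CSK is highest in SORL1-KO (0.125 to 0.25) and lowest in WT (-0.292 to 0.078), and VAV1 is highest in TREM2-R47H (0.021 to 0.341).

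SYK, the kinase at the centre of the pathway, passed in no comparison. Its depth-adjusted call differed from WT by -0.0559 in TREM2-KO to 0.103 in SORL1-A528T, with an SE of 0.0612 for each difference. SORL1-A528T was the highest line, with 0.102, 0.071 and 0.135 in replicates 1, 2 and 3, against -0.042, -0.042 and 0.0025 in SORL1-KO. The 2 lines did not overlap. The difference of 0.13 had an unadjusted p of 0.046 and an adjusted p of 0.824, so it did not pass the limma test. It was 0.0303 without depth adjustment, 0.233 with a call counted only at 50% cover of the region and 0.219 with lists of equal length, and passed in none of these. WT had 0.023, -0.010 and -0.013, all below SORL1-A528T, with an adjusted p of 0.979.

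One SYK region was called in no TREM2-R47H library and in all TREM2-KO and WT libraries. It lies inside the SYK gene, 37.8 kb after the first annotated start, at chr9:90838960-90839874 as the lists give it. TREM2-R47H had it in 0 of 3 libraries, SORL1-KO and INPP5D SNP in 2 of 3, and TREM2-KO, SORL1-A528T, CD33 SNP and WT in 3 of 3, which made 16 of 21. The nearest TREM2-R47H peaks were 415, 3046 and 3073 bp away in replicates 1, 2 and 3. Where it was called, peaks covered 501 to 802 bp of it (median 630) and stood at the 3.4th to 56.3rd percentile of its list (median 28.4), where the highest percentiles are the start of a list. In the whole series 505 regions (0.303%) had this pattern, 0 of 3 in TREM2-R47H and 3 of 3 in WT, and 481 (0.288%) had it against TREM2-KO. With 3 libraries against 3, an exact permutation test cannot go below 0.1, so no test was made. When each list was shortened to 39711 peaks, as many as the shortest held, the region no longer stood 0 of 3 against 3 of 3 in either comparison. By a limit set after its values were seen, 50 regions (0.03%) were missing from all TREM2-R47H libraries and called in at least 16 of the other 18, and this was the one at the 9 genes. Regions open in 3 of 3 TREM2-R47H and 0 of 3 libraries of the other line numbered 0 at the 9 genes, beside 0.127% of all regions against WT and 0.345% against TREM2-KO. The other comparisons with WT had 0 such regions at the 9 genes open in the edited line alone or in WT alone. Over all regions these shares, in that order, were 0.048% and 0.0576% in TREM2-KO, 0.0114% and 0.487% in SORL1-A528T, 0.0624% and 0.233% in SORL1-KO, 0.0954% and 0.0414% in CD33 SNP, and 0.0276% and 0.142% in INPP5D SNP. In SORL1-A528T against SORL1-KO, 0 were open in SORL1-A528T alone (0.112% of all regions).

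**Figure D4:**
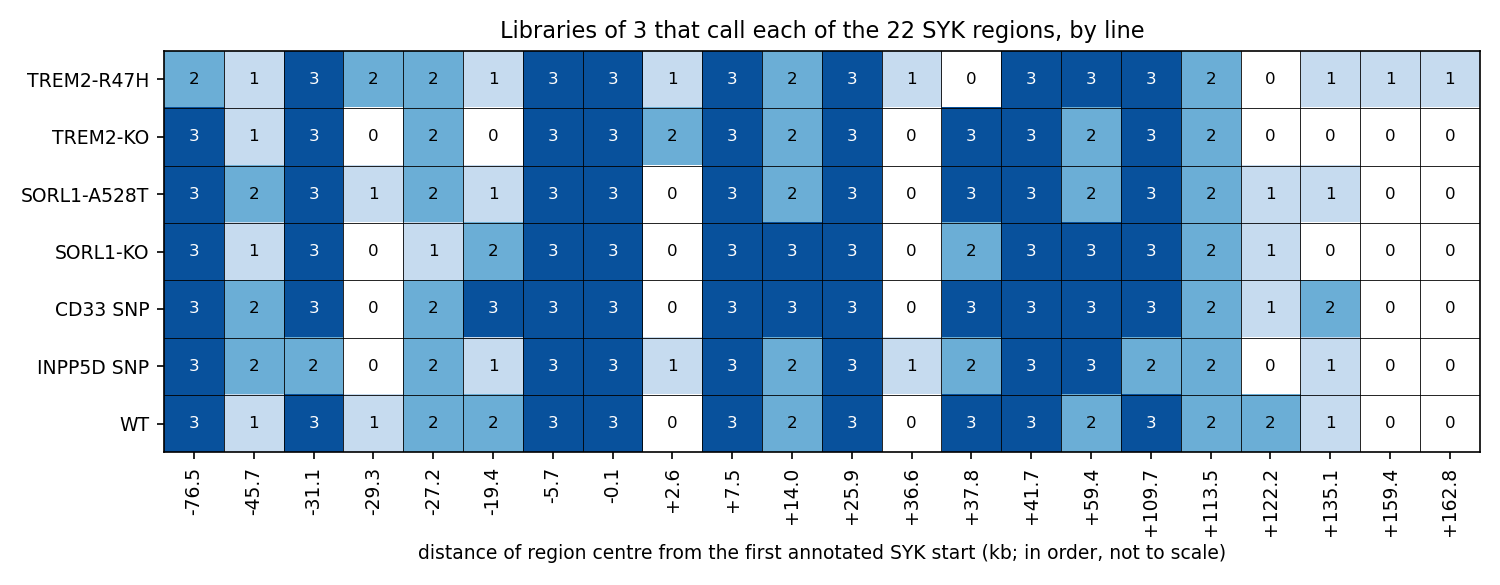
Number of libraries of 3 (cell value, darker for more) that called each of the 22 SYK regions (x, distance of the region's centre from the first annotated SYK start in kb, in order and not to scale) in each line (y). The column at +37.8 kb holds 0 in TREM2-R47H and 2 or 3 in every other line, while the 5 shared regions hold 3 throughout.

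The 5 SYK regions called in every library were compared by list rank. The lists carry no varying score, but their order carries strength: the first 10% of the peaks in a list had a match in 19.9 to 19.99 of the other libraries on average, and the last 10% in 4.16 to 13.76. A region's rank was taken among the 25599 regions called in all libraries, from 100 for the first to 0 for the last. The region 41.7 kb after the start (chr9:90842674-90844004) had ranks of 42.5, 32.3 and 27.6 in TREM2-R47H, against 49.1, 63.2 and 56.9 in WT. All TREM2-R47H ranks lay below all WT ranks. The difference was -22.2 (SE 7.54) with an adjusted p of 0.274, so it did not pass, while 81 shared regions (0.316%) did in this comparison. TREM2-KO had 54.7, 52.2 and 48.7, again all above TREM2-R47H, and the difference of TREM2-R47H from it was -17.7 (adjusted p of 0.383, with 138 regions or 0.539% called). SORL1-KO ranks there were 42.5, 13.3 and 47.6, and differed from WT by -21.9 (adjusted p of 1.0, with 2 regions or 0.00781% called). The region 7.5 kb after the start (chr9:90808235-90809868) had ranks of 56.2, 47.2 and 63.8 in TREM2-R47H, against 64.6, 79.7 and 75.9 in WT. These did not overlap, with a difference of -17.6 (SE 5.72) and an adjusted p of 0.243. TREM2-KO had 57.0, 67.5 and 61.8 there, which overlapped both TREM2-R47H and WT.

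In SORL1-A528T against SORL1-KO the same readout had its smallest p-values at the 9 genes in SYK. The region 5.7 kb before the start (chr9:90795066-90796702) had ranks of 32.6, 57.5 and 36.4 in SORL1-A528T, against 14.0, 10.8 and 22.7 in SORL1-KO. The lines did not overlap, and the difference of 26.3 (SE 7.63) had an adjusted p of 0.142, beside 212 shared regions (0.828%) that passed. The region at +41.7 kb had 52.7, 65.0 and 60.7 in SORL1-A528T, against 42.5, 13.3 and 47.6 in SORL1-KO, a difference of 25.0 (adjusted p of 0.163). Over the SYK starts at 90801600 and 90801819 (chr9:90799948-90803054) the ranks ran from 9.94 to 77.92 over the 21 libraries. They were 70.3, 33.3 and 32.1 in TREM2-R47H and 51.2, 31.4 and 63.0 in WT, which overlapped. Over the SYK start at 90827420 (chr9:90826932-90828030) the ranks ran from 3.59 to 40.2. They were 27.6, 3.6 and 23.5 in TREM2-R47H and 11.8, 25.2 and 25.8 in WT, which also overlapped. Of all 29 shared regions of the 9 genes, 0 passed by rank in a pair of lines (smallest adjusted p 0.142; 18 of 232 tests below 0.05 unadjusted, beside 6.3% of the tests over all shared regions) and 0 in the F test (smallest adjusted p 0.3), where 130 regions (0.508%) passed in the series. By width of the peak, 0 passed as well (smallest adjusted p 0.808 in a pair of lines and 1.0 in the F test; 11 of 232 pair tests below 0.05 unadjusted, beside 4.02% over all shared regions), and 1 region (0.00391%) passed the F test in the series.

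**Figure D5:**
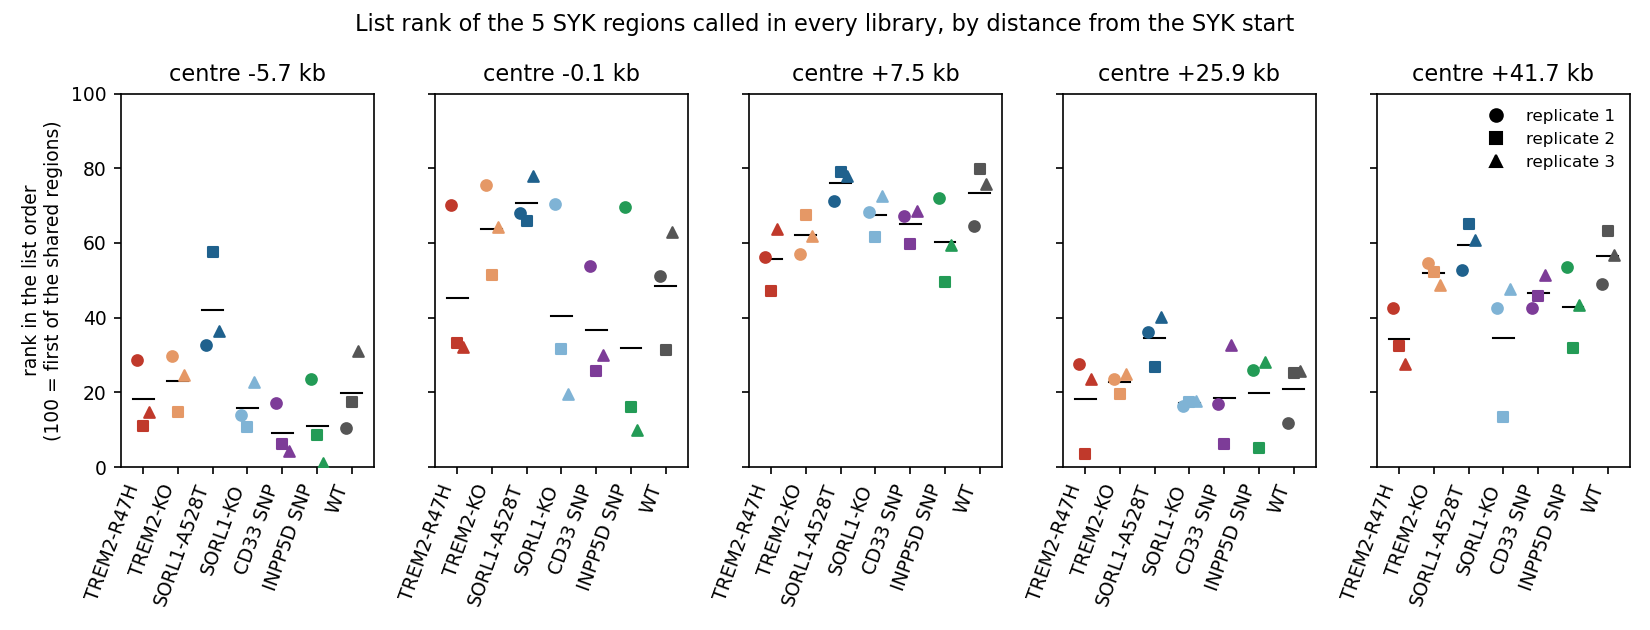
Rank in the list order (y, 100 for the first and 0 for the last of the regions called in every library) of the 5 shared SYK regions (panels, distance from the SYK start) by line (x), a point per library shaped by replicate number and a bar at the mean of 3. At +41.7 kb TREM2-R47H sits at 27.6 to 42.5 and WT at 49.1 to 63.2.

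LYN, the Src-family kinase that phosphorylates both activating and inhibitory receptors, had the most regions of the 9 genes, with 26 of 32 inside or touching the gene. The shared regions with the highest mean ranks of all 9 genes lay at its 5′ gene end and just inside, chr8:55878579-55882368 with a mean rank of 91.4 and chr8:55883247-55886922 with 92.4. Its depth-adjusted call differed between lines by -0.0793 to 0.0186 over the 8 comparisons (smallest unadjusted p 0.186). Within every line it was higher in replicate 3 than in replicate 1 (0.104 and 0.035 in WT). Adjusted values can thus still differ by replicate number. One region in the later part of the gene, chr8:55978400-55979267, was called in 0 of 3 SORL1-A528T libraries and 3 of 3 SORL1-KO libraries. TREM2-R47H and CD33 SNP called it in 3 of 3, INPP5D SNP and WT in 2 of 3 and TREM2-KO in 1 of 3. In the whole series 1840 regions (1.1%) had this pattern. With lists of equal length the LYN region no longer had it. SORL1-A528T had the fewest peaks within each replicate number, 39736 to 78438. SORL1-A528T made 15, 12 and 20 of 32 calls at LYN and SORL1-KO made 17, 17 and 21.

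FGR, the other Src-family kinase of myeloid cells, had 2 shared regions, a broad one over its outer start (chr1:27630930-27637014, 641 to 5346 bp covered per library) and one inside the gene (chr1:27617899-27619254). Its depth-adjusted call was 0.111, -0.017 and 0.229 in TREM2-R47H, against 0.080, -0.103 and -0.250 in TREM2-KO, with overlap. The difference of 0.198 (SE 0.0931) had an unadjusted p of 0.0459 and an adjusted p of 0.356. With the replicate number as a block the adjusted p was 0.217. The difference was 0.0613 without replicate 3 of every line and 0.112 without TREM2-KO replicate 3. It was 0.289 without replicate 1 of every line and 0.283 without TREM2-KO replicate 1. The calls behind it were few: FGR had 4, 2 and 5 of 8 regions called in TREM2-R47H and 3, 2 and 2 in TREM2-KO. It was 0.132 with a call counted only at 50% cover of the region. The other 7 comparisons tested had an unadjusted p above 0.05 at FGR.

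CSK, which keeps Src-family kinases in their closed form, had the largest difference from WT of the 6 tested genes, though it did not pass. SORL1-KO called 7, 6 and 7 of its 7 regions, against 7, 1 and 5 in WT. The depth-adjusted call was 0.135, 0.250 and 0.125 in SORL1-KO, against 0.078, -0.292 and -0.203 in WT, with no overlap. The difference of 0.309 (SE 0.0942) had an unadjusted p of 0.00371 and an adjusted p of 0.938. TREM2-R47H had -0.0053, 0.135 and 0.092, a difference from WT of 0.213 (SE 0.0942, adjusted p of 0.56), with overlap. All 6 edited lines had a mean above WT at CSK, by 0.086 to 0.309, but they were set against the same 3 WT libraries, of which replicate 2 called 1 of 7 regions. Without WT replicate 2 the differences were 0.219 in SORL1-KO and 0.122 in TREM2-R47H. With a call counted only at 50% cover the TREM2-R47H difference was 0.139. SORL1-A528T lay below SORL1-KO (-0.027, -0.154 and 0.048 against 0.135, 0.250 and 0.125) by -0.215 (adjusted p of 0.798), with no overlap, and its replicate 2 also called 1 of 7 regions. That difference was -0.381 without depth adjustment and -0.113 with gene-end regions alone. The start region (chr15:74786650-74789246) was called in every library, so the calls that differed lay in the other 6 regions.

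VAV1, the exchange factor that links SYK to the cytoskeleton, had 8 regions and 0 of them shared by all libraries. TREM2-R47H called 8, 3 and 7 of them, against 5, 1 and 4 in TREM2-KO and 7, 1 and 5 in WT. The depth-adjusted call was 0.341, 0.021 and 0.161 in TREM2-R47H, against 0.120, -0.304 and -0.245 in TREM2-KO. Each TREM2-R47H library was above the TREM2-KO mean, although the lines overlapped. The difference of 0.317 (SE 0.105) had an unadjusted p of 0.00675 and an adjusted p of 0.238. Without TREM2-KO replicate 1 it was 0.452 with an adjusted p of 0.0415, past the threshold, as were 107 of 8666 genes there. With gene-end regions alone the VAV1 difference was 0.00895. In this pair of lines all 3 pairs of libraries with the same number deviated together (r of 0.534, 0.292 and 0.186 across genes). TREM2-R47H replicate 2, however, had a higher r with a TREM2-KO library of another number (0.313). With the replicate number as a block 59 genes were called in place of 0, and VAV1 had an adjusted p of 0.0821. Against WT, TREM2-R47H was 0.204 higher at VAV1 (adjusted p of 0.624). CD33 SNP was the lowest line with -0.100, -0.287 and -0.131, -0.143 from WT (adjusted p of 1.0). VAV1 was the one gene of the 6 with an unadjusted p below 0.05 in the F test over all lines (0.0329, adjusted p of 0.804).

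LCP2, the adaptor that gathers VAV1 and phospholipase C gamma, had the narrowest range of differences between lines of the 6 tested genes. Its start lay in a broad region (chr5:170287057-170298459) that covered 2649 to 9297 bp per library and was wider than 99.7% of the 25599 shared regions. A further pair of shared regions lay inside the gene (chr5:170267646-170271393 and chr5:170276678-170281589), and 4 shared regions lay within 13850 bp beyond the start. Its depth-adjusted call ran from -0.0732 to 0.132 over the 21 libraries and differed between lines by -0.00926 to 0.0615 (smallest unadjusted p 0.299).

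CARD9, the adaptor that links SYK to NF-kB signalling, had a region inside the gene (chr9:136365177-136366618) called in 13 libraries. It was called in 3 of 3 libraries of TREM2-R47H and SORL1-KO, 2 of 3 of SORL1-A528T and CD33 SNP, and 1 of 3 of TREM2-KO, INPP5D SNP and WT. CBL had 2 regions besides its gene end, one called in 7 libraries and one in 1. PTPN6, which removes phosphate from SYK targets, had 3 broad regions called in 20 or 21 libraries and 1 more (chr12:6949094-6949594) called in TREM2-R47H replicate 1 alone. With no minimum of regions per gene these 3 genes could be fitted too, and the smallest adjusted p was 0.424, for CARD9 in TREM2-R47H against TREM2-KO (a difference of 0.316, SE 0.132).

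The median difference over the 6 tested genes was 0.0842 in TREM2-R47H, -0.0576 in TREM2-KO, 0.0781 in SORL1-A528T, 0.0274 in SORL1-KO, 0.0137 in CD33 SNP and -0.00258 in INPP5D SNP against WT. Over all 8732 genes these medians were 0.0082, -0.013, -0.000151, 0.00556, 0.00645 and 0.00242 in the same order of lines. In TREM2-R47H 4 of 6 genes were above 0 (54.8% of all genes), in TREM2-KO 1 of 6 (42.6%), in SORL1-A528T 5 of 6 (49.9%), in SORL1-KO 4 of 6 (52.4%), in CD33 SNP 4 of 6 (53.8%) and in INPP5D SNP 2 of 6 (51.6%), each against WT. In TREM2-R47H against TREM2-KO 5 of 6 were above 0 (58.1%), and in SORL1-A528T against SORL1-KO 3 of 6 (46.8%).

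No gene of the wider pathway passed either in the fit without pairing. Of 50 other genes of the pathway, 39 had enough regions, and 0 passed the adjusted threshold in any of the 8 comparisons. At an unadjusted p below 0.05, TREM2-R47H against WT had 2 of the 39 higher and 0 lower, beside 4.9% and 3.53% of all genes. TREM2-KO against WT had 0 and 0 (1.44% and 2.07%), SORL1-A528T against WT 2 and 0 (1.83% and 2.26%) and SORL1-KO against WT 1 and 0 (2.78% and 1.97%). CD33 SNP against WT had 0 and 0 (1.74% and 0.779%) and INPP5D SNP against WT 0 and 0 (1.48% and 1.4%). TREM2-R47H against TREM2-KO had 4 and 0 (9.15% and 4.65%), and SORL1-A528T against SORL1-KO 1 and 1 (2.35% and 3.57%). PRKCD, a protein kinase C that SYK activates, had 0.125 ± 0.062 in TREM2-R47H, -0.095 ± 0.045 in TREM2-KO and -0.063 ± 0.097 in WT (SD, n = 3 each). Its difference was 0.22 from TREM2-KO (adjusted p of 0.21) and 0.188 from WT (adjusted p of 0.493). BLK, a Src-family kinase best known from B cells, had 0.124 ± 0.079 in TREM2-R47H and -0.104 ± 0.089 in TREM2-KO (adjusted p of 0.228). SOS1, a Ras exchange factor, was 0.181 higher in TREM2-R47H than in WT (adjusted p of 0.586). DOK2, an adaptor that dampens kinase signals, and ITGB2, the beta chain of leukocyte integrins, were 0.214 and 0.282 higher in SORL1-A528T than in WT (adjusted p of 0.979 each). VAV2, a relative of VAV1, was 0.204 higher in SORL1-KO than in WT (adjusted p of 0.938). In SORL1-A528T against SORL1-KO, PLCG1, a phospholipase C gamma, differed by 0.211 and YES1, a Src-family kinase, by -0.141 (adjusted p of 0.798 and 0.829).

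The gene at least 5 Mb away whose depth-adjusted calls were most like a member's over the 21 libraries was CLEC6A for SYK (Pearson r 0.8), STXBP6 for LYN (0.76), GRIN2D for FGR (0.89), ABCC5 for CSK (0.81), HPCAL1 for VAV1 (0.87) and PDLIM1 for LCP2 (0.75). Each was the highest of at least 8679 genes compared, the libraries share line and depth, and the next best r was 0.71 to 0.87, so these are descriptions.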

How the data were processed

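The deposited files were 21 HOMER peak lists, one per library. Tools named in the submitters' processing notes are HOMER 4.10, STAR 2.7, cutadapt 1.18 and DESeq2, the last with no purpose stated. The genome build, and whether reads were shifted for the transposase, are not given in the sources used here. Peaks were called, per the file headers, at a size of 500 bp and a minimum distance of 1000 bp, and needed 4.00-fold over the local 10000 bp, a local Poisson p of 1.00e-04 and a Poisson p of 1.000000e-03. The deposited score column holds 1 in every row, so calls, peak positions (the other deposited values) and list order were used. Peaks on Y and M (0.082% of 1604926) were left out. The tags per library in the file headers set the depth behind each call. No interval was given, since calls are not counts.

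Regions, depth-adjusted calls, peak width (log2 of the covered bp minus the library's median over shared regions) and list rank were computed with Python 3.11.15, numpy 2.4.6 and pandas 2.3.3. All 21 libraries were fitted together by limma 3.58.1 in R 4.3.3 (two-sided, Benjamini-Hochberg over all genes or shared regions per comparison), after the fit had been tested on simulated data. Figures were drawn with matplotlib 3.10.9. The members, the gene and marker lists, the tests and the alternatives were chosen with earlier results of these data known. All 9 members were named, with a difference in full where its unadjusted p was below 0.05, and of the pathway list up to 2 genes per comparison. The replicate number was not used as pairing in the values above, except where a block is named. That block was fitted over all 21 libraries. In TREM2-R47H against TREM2-KO alone, all 3 pairs of libraries with the same number had a correlation of deviations over 0.1. No pair of libraries was a duplicate: the highest share of identical calls was 87.2%.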

Additional observations from a re-analysis of the deposited data

How the results depend on the processing

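Alternatives were run for the 6 member differences with an unadjusted p below 0.05 (1 at SYK, 1 at FGR, 3 at CSK and 1 at VAV1), and not for the other member tests. None of these 6 changed sign where a value was obtained. FGR and VAV1 had no value with lists of equal length, and FGR, CSK and VAV1 none with at least 10 regions. SYK and FGR had none with gene-end regions alone. The threshold was crossed by 1, VAV1 in TREM2-R47H against TREM2-KO without TREM2-KO replicate 1 (0.452, adjusted p of 0.0415). There 107 of 8666 genes passed. Over the libraries left out the adjusted p at VAV1 was 0.0415 to 0.763. The causes of the moves below were not tested.

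Genes called in INPP5D SNP against WT numbered 0 in place of 1 with at least 10 regions per gene, with 50% cover, with gene-end regions alone, with lists of equal length, without depth adjustment and with no minimum of regions. With at least 10 regions, 13 were called in TREM2-R47H against TREM2-KO, 4 in SORL1-A528T against SORL1-KO and 1 in the F test. With lists of equal length, 1 was called in TREM2-R47H against WT, 2 in TREM2-R47H against TREM2-KO, 2 in SORL1-A528T against SORL1-KO and 1 in the F test. Gene-end regions alone gave 1 in SORL1-A528T against SORL1-KO. Without the SORL1-A528T libraries 49 shared regions passed by rank in place of 130.

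With the replicate block, 59 genes were called in TREM2-R47H against TREM2-KO and 8 in SORL1-A528T against SORL1-KO, in place of 0, and 7 shared regions by width and 682 by rank in the F tests, in place of 1 and 130. By rank 1 of the members' 29 shared regions passed, beside 682 of all 25599 shared regions. It was the FGR region inside the gene (adjusted p of 0.0284). In the pairs of lines, 0 of the members' shared regions passed with the block (smallest adjusted p 0.0506 by rank and 0.244 by width). The main fit took the numbers as pairing in no comparison. Of all 24 same-number pairs 14 had a correlation over 0.1, from -0.035 to 0.534, and the own number was best in 18.

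Leaving out libraries gave 0 to 1 genes in SORL1-KO and in INPP5D SNP against WT, 0 to 107 in TREM2-R47H against TREM2-KO (107 without TREM2-KO replicate 1), 0 to 6 shared regions by width and 0 to 174 by rank. Without replicate 2, regions at the 9 genes open in 2 of 2 libraries of one line and 0 of 2 of the other numbered 3 in TREM2-R47H against WT, all open in WT alone (2.58% of all regions). Of 3 in TREM2-KO, 1 was open in TREM2-KO alone (0.335%) and 2 in WT alone (1.92%). SORL1-A528T had 3, open in WT alone (5.5%), CD33 SNP 1, open in CD33 SNP alone (1.27%), and INPP5D SNP 2, open in WT alone (2.26%). TREM2-R47H against TREM2-KO had 4, with 3 open in TREM2-R47H alone (2.87%) and 1 in TREM2-KO alone (0.841%). SORL1-A528T against SORL1-KO had 3, open in SORL1-KO alone (3.75%).

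With lists of equal length such regions numbered 0 in TREM2-R47H against WT (0.35% of all regions open in WT alone), 1 in SORL1-A528T (0.234%) and 1 in INPP5D SNP (0.0654%), both open in WT alone. In TREM2-R47H against TREM2-KO and in SORL1-A528T against SORL1-KO the count stayed at 1, but of another region, at SYK in both. In the first comparison it was open in TREM2-KO alone (0.353% of all regions). In the second it was open in SORL1-A528T alone (0.277%), whereas the LYN region of the full lists was open in SORL1-KO alone. With 50% cover TREM2-R47H against TREM2-KO had 2, with 1 open in TREM2-R47H alone (0.41%) and 1 in TREM2-KO alone (0.303%). With lists of equal length the share of calls was 42.8% in TREM2-R47H, 39.9% in TREM2-KO, 42.2% in SORL1-A528T (the lowest line, at 53.9%, with full lists), 42.2% in SORL1-KO, 40.8% in CD33 SNP, 40.2% in INPP5D SNP and 39.2% in WT. With 50% cover it was 48.7% in TREM2-R47H, 40.2% in TREM2-KO, 38.9% in SORL1-A528T, 41.2% in SORL1-KO, 48.7% in CD33 SNP, 37.9% in INPP5D SNP and 45.1% in WT. A region without a call may lie under the caller's threshold, most of all at the 12.8 to 17.5 M tags of replicate 2.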

Other observations

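Some regions at these genes were called in few libraries, and they are given as values. The SYK region 2.6 kb after the first start (chr9:90803806-90804561) was called in 4 libraries: 1 of TREM2-R47H, 2 of TREM2-KO and 1 of INPP5D SNP. The 2 SYK regions farthest downstream (159.4 and 162.8 kb after the start) were each called in 1 library. It was TREM2-R47H replicate 1 for both, the library with the most tags (67.4 M). Of all regions 25.8% were called in 1 library. An LCP2 region inside the gene (chr5:170282477-170283203) was called in 2 of 3 CD33 SNP libraries and in 0 libraries of the other lines. The FGR regions chr1:27615597-27616350 and chr1:27622709-27623559 were each called in 1 TREM2-R47H and 1 SORL1-A528T library.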
